A study of Homo sapiens with 32 samples.

Results

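The genes described here are 50 genes of mitosis and the spindle checkpoint. They were chosen by name, as a list of G2/M and spindle genes, by a rule that uses no measured value, but with earlier results of these data known. All 50 stand among the 35238 genes of the deposited table, where SGOL1 goes by its current symbol SGO1. Each of the 50 also passed the filter on low values (counts per 1000000 reads, CPM, above 1 in at least 2 libraries), which left 17011 genes for testing.

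RNA was sequenced from 4 human endometrial cancer cell lines, with 2 libraries in each of 16 groups. Ishikawa is labelled CTNNB1-wildtype, and Ishikawa-S33Y, SNGM and HEC265 are labelled CTNNB1-mutated; CTNNB1 encodes beta-catenin, the effector of Wnt signalling. Every line received vehicle (0.1% DMSO), paclitaxel, SM08502 or both drugs together (here called the combination) for 24 h. Paclitaxel is a taxane that keeps microtubules from coming apart. SM08502 blocks kinases of the CLK family, whose substrates include splicing factors of the SR type. Each drug was used at the concentration that lowered the viability of that line by 50%. Ishikawa received 11 nM paclitaxel and 80 nM SM08502, and Ishikawa-S33Y received 6 nM and 85 nM. SNGM received 11.7 nM paclitaxel and 350.7 nM SM08502, and HEC265 received 5.6 nM and 149 nM. The dose therefore differed between lines, as did the RNA put into a library, 350 ng for Ishikawa and 500 ng for the others; their part in a difference between lines cannot be told apart from that of the line itself. How Ishikawa-S33Y was made, and whether it is 1 clone, is not given in the sources used here. The libraries of a group came from cells plated in duplicate, so p-values measure the spread between such duplicates. Within a line, the 3 treatments share the same 2 vehicle libraries.

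Cells enter mitosis when cyclin B and CDK1 become active. The spindle checkpoint kinases and their partners then hold back anaphase until each kinetochore is attached to microtubules, after which CDC20 and the anaphase-promoting complex mark securin and cyclin B for destruction. Most of these genes are transcribed late in the cell cycle, so in a dividing culture their RNA depends on the share of cells in G2 and mitosis as well as on the RNA per cell. Bulk libraries cannot tell fewer such cells from less RNA in each of them. Paclitaxel holds cells in mitosis through the same checkpoint.

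Depth was 13026400 to 34127623 reads in 30 libraries. The second combination libraries of Ishikawa-S33Y and SNGM held 2991041 and 1607038 reads, with a median of 426.5 and 100 reads per gene of the list and 52 and 2 reads at the lowest, CDC25C. A length score, taken as the average log2(CPM + 1) over 50 long-transcript genes less the average over 83 genes of ribosomal proteins, ran from -3.14 to -1.58 over the Ishikawa libraries and from -1.82 to -0.07 over the other lines. Within the Ishikawa paclitaxel pair it was -1.58 and -3.14, and within the SM08502 pair -2.26 and -3.07. Counts from a fit with the score as a covariate are given beside the counts it moves. The root mean square log2 difference between duplicates over the 50 genes was 0.05 in HEC265 vehicle, 0.35 in SNGM SM08502 and 0.70 in Ishikawa paclitaxel. All 6 epithelial markers (KRT8, KRT18, KRT19, EPCAM, CDH1 and PAX8) were at 60.5 CPM or more in every library. Of 6 markers of other cell types, PTPRC, PECAM1, CDH5 and COL3A1 were at 4.69 CPM or less, CD68 reached 50.4 CPM, and COL1A1 averaged 945 CPM in Ishikawa-S33Y and 1.14 CPM in SNGM.

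Many genes of the list share sequence near their starts that the choice by name did not use. RefSeq promoters of GRCh38.p14, 250 bases before to 50 bases after the annotated start, were at hand for 43 of the 50. Of these, 29 (67.4%) hold the sequence TTTGAA on either strand, against 15.4% of 27305 promoters of the same length. This sequence is known as the cell cycle genes homology region, through which the DREAM and MuvB complexes act on G2/M genes. Its variant TTTAAA, which reads alike on both strands, was found in 14 (32.6%, against 12.3% of all promoters), and CCAAT or its reverse complement ATTGG, the letters bound by NF-Y, in 33 (76.7%, against 35.7%). In the last 150 bases of these promoters, which end 50 bases after the start, the shares were 60.5%, 20.9% and 67.4%. Those of all promoters were 6.9%, 5.3% and 22%. A match describes the letters only. The 8 windows below run from 120 bases before to 30 bases after the start, and are shown because their genes carry the results. The first 6 belong to genes of entry, anaphase and cytokinesis that moved with SM08502 or the combination. The last 2 belong to the genes that fell in Ishikawa-S33Y while most others rose. They are written 5′ to 3′ along the gene, with matches to the 3 motifs in capitals.
CCNB1 (chr5:69167030-69167179, plus strand): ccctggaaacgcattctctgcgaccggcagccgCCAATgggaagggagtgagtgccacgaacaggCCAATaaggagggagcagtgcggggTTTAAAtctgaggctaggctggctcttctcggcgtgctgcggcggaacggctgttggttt
CCNB2 (chr15:59105026-59105175, plus strand): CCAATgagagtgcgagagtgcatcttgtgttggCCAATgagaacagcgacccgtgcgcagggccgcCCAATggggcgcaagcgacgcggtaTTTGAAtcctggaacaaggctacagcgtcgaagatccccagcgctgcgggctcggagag
CDC20 (chr1:43358861-43359010, plus strand): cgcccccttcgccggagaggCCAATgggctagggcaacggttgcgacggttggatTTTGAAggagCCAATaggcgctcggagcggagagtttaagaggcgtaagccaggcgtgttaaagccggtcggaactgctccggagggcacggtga
PLK1 (chr16:23678769-23678918, plus strand): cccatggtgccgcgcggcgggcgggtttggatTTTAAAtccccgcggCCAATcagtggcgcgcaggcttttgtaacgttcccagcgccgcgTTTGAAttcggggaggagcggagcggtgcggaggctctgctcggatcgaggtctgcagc
KIF20A (chr5:138178992-138179141, plus strand): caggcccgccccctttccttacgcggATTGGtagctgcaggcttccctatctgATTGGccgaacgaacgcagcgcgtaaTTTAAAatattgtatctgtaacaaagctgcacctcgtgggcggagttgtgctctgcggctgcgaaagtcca
PTTG1 (chr5:160421735-160421884, plus strand): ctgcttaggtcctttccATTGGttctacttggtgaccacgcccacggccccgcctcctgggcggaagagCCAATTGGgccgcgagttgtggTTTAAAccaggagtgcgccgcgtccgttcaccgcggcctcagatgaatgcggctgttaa
HMMR (chr5:163460512-163460661, plus strand): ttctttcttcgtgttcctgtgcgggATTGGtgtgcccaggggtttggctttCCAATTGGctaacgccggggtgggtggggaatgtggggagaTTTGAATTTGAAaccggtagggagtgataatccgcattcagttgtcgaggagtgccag
KIF4A (chrX:70289984-70290133, plus strand): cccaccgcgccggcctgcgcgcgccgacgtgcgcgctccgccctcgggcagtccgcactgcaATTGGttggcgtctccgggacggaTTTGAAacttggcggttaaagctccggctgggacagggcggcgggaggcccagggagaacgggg
The first base of TTTGAA stands 29 bases before the start in CCNB2 and PLK1, 28 in HMMR, 34 in KIF4A and 65 in CDC20. CCNB1, PTTG1 and KIF20A hold TTTAAA there instead, 30, 29 and 41 bases before the start. In HMMR a second TTTGAA follows the first directly, and in PTTG1 and HMMR a CCAAT and an ATTGG overlap.

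On vehicle, the level of 46 of the 50 genes differed among the 4 lines (limma moderated F test, adjusted p under 0.05); the background was high, with 86.9% of all tested genes called. Each gene was compared with itself across lines, in CPM, with no comparison between genes. Ishikawa was the highest line for 23 of the 50 and Ishikawa-S33Y the lowest for 22. CCNB2, a B-type cyclin, had the lowest p, at 146 and 141 CPM in the Ishikawa libraries and 34.4 and 30.6 CPM in SNGM, with Ishikawa-S33Y and HEC265 between (adjusted p = 4.64e-11). MKI67, which encodes the proliferation antigen Ki-67, read only 53.9 and 68.6 CPM in Ishikawa against 578 and 571 CPM in Ishikawa-S33Y (adjusted p among the lines = 5.65e-07). MKI67 and CENPF have long transcripts, and the Ishikawa vehicle libraries had the lowest length scores of the vehicle groups, -2.80 and -2.34. The part of the score in these levels was not tested, and it cannot be told apart from that of the line or its RNA input. BUB1B, KIF4A, TPX2 and CKAP2 did not pass the test among lines.

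SM08502 moved the list in opposite directions in Ishikawa-S33Y and in SNGM. In Ishikawa-S33Y 27 of the 50 genes rose and 2 fell, where 18.5% of all tested genes rose and 10.6% fell (limma, Benjamini-Hochberg adjusted p under 0.05 over 17011 genes). In SNGM none rose and 19 fell, with a background of 3.8% higher and 4.06% lower. HEC265 had no rise and 8 falls, against 9.27% and 5.39%. In Ishikawa 2 genes rose and 2 fell, against 6.5% and 8.68%, which is close to the background; with the length score as covariate 8 genes were called there. The median change over the list, as a difference in log2(CPM + 1), was 0.53 in Ishikawa-S33Y, -0.48 in SNGM, -0.24 in HEC265 and -0.05 in Ishikawa, where the medians of all tested genes were 0.11, 0.00, 0.07 and 0.00.

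**Figure D1:**
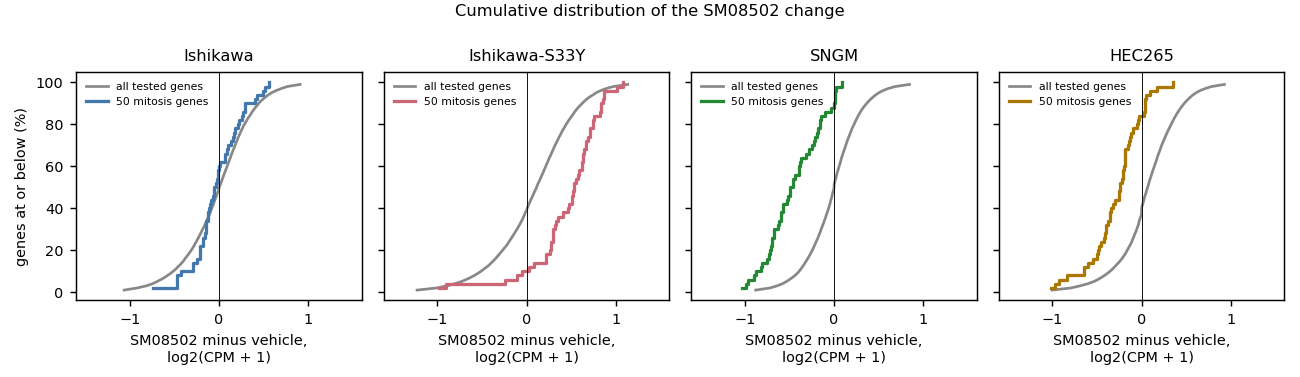
Cumulative distribution of the SM08502 change, 1 panel per line. The x axis is the difference in log2(CPM + 1), SM08502 minus vehicle; the y axis is the percent of genes at or below it; grey stands for the 17011 tested genes and colour for the 50 mitosis genes. The coloured curve lies to the right of the grey one in Ishikawa-S33Y (medians 0.53 and 0.11), to its left in SNGM and HEC265, and close to it in Ishikawa.

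The reads of all 50 genes summed show the same sizes. In Ishikawa-S33Y the sum was 6157 and 6114 CPM on vehicle, 8825 and 8797 CPM with SM08502 and 8933 and 9489.7 CPM with the combination, 1.44 and 1.50 times vehicle. In SNGM it was 6981 and 6586 CPM on vehicle, 4467 and 5599 CPM with SM08502 and 3966 and 4920.2 CPM with the combination, 0.742 and 0.655 of vehicle. The SNGM duplicates lay far apart on SM08502, and the higher one still stood below both vehicle libraries. In Ishikawa-S33Y the groups were apart. In HEC265 the sums were 7664 and 7701 CPM on vehicle, 6418 and 6507 CPM with SM08502 and 6318 and 5734 CPM with the combination. In Ishikawa the vehicle sums (6569.6 and 7095 CPM) and SM08502 sums (7043 and 6531 CPM) overlapped, and the combination lay above both, at 7434 and 7374 CPM. The cell type markers moved too, and their part in these results was not tested. In Ishikawa-S33Y the 6 epithelial markers summed to 3484 and 3416 CPM on vehicle, 1999 and 1782 CPM with SM08502 and 1540.2 and 1464 CPM with the combination. The 6 markers of other cell types, mostly COL1A1, summed there to 1168 and 1141 CPM, then 905 and 829.5 CPM, then 721 and 717 CPM. Both sums thus fell without overlap where most genes of the list rose. In SNGM the epithelial sum was 1056 and 1107 CPM on vehicle and 1153 and 1068 CPM with SM08502, and in HEC265 2645 and 2637 CPM and then 2283 and 2416 CPM, overlapping in SNGM and lower in HEC265. In Ishikawa it was 1474 and 1429 CPM and then 1191 and 1062 CPM, also lower. The sum over the other cell types with SM08502 was higher than on vehicle in SNGM (22.3 and 27.9 CPM, then 41.4 and 37.8 CPM) and HEC265 (17.4 and 16.5 CPM, then 39.6 and 44.2 CPM) and lower in Ishikawa (129 and 181 CPM, then 99.4 and 53.1 CPM). As a share of all reads, the list took between 0.444% (SNGM combination) and 0.921% (Ishikawa-S33Y combination) in the group means.

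**Figure D2:**
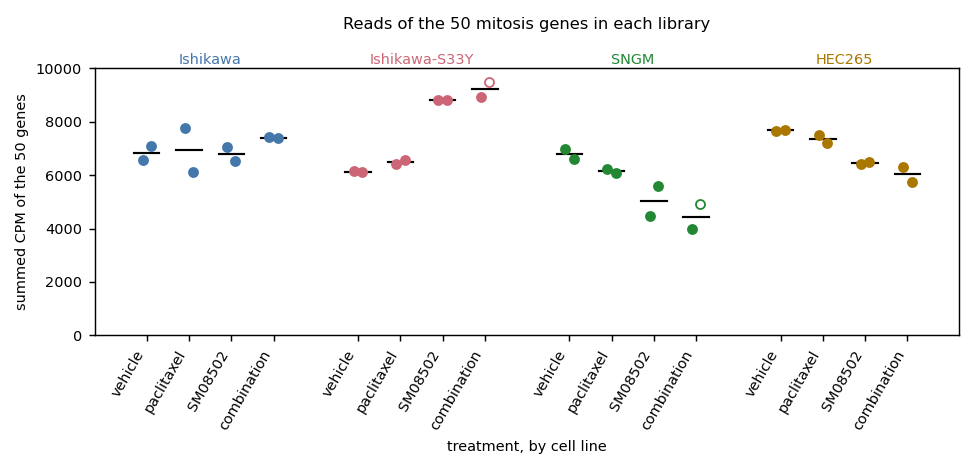
Summed CPM of the 50 genes (y axis) in each of the 32 libraries, by line and treatment (x axis); points are libraries, bars are group means, and open points are the 2 shallow libraries. With SM08502 the Ishikawa-S33Y libraries stand above their vehicle libraries, and the SNGM and HEC265 libraries stand below theirs.

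Outside Ishikawa, the libraries of most genes did not overlap between SM08502 and vehicle. In Ishikawa-S33Y both SM08502 libraries were higher than both vehicle libraries for 44 of the 50 genes, where 48.8% of all tested genes were; in SNGM both were lower for 38 (26.4% of all), and in HEC265 both were lower for 40 (25.5% of all). Across the lines, 40 of the 50 genes were called in at least 1 line: 18 rose in a line and fell in none, 13 fell in a line and rose in none, and 9 rose in Ishikawa-S33Y and fell in SNGM. The last 9 were CCNB1, PLK1, CDC20, PTTG1, BIRC5, KIF20A, PRC1, ECT2 and DLGAP5. The 10 genes called in no line were CDK1, FOXM1, INCENP, CENPE, CENPF, KIF11, KIFC1, ANLN, TACC3 and MKI67.

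**Figure D3:**
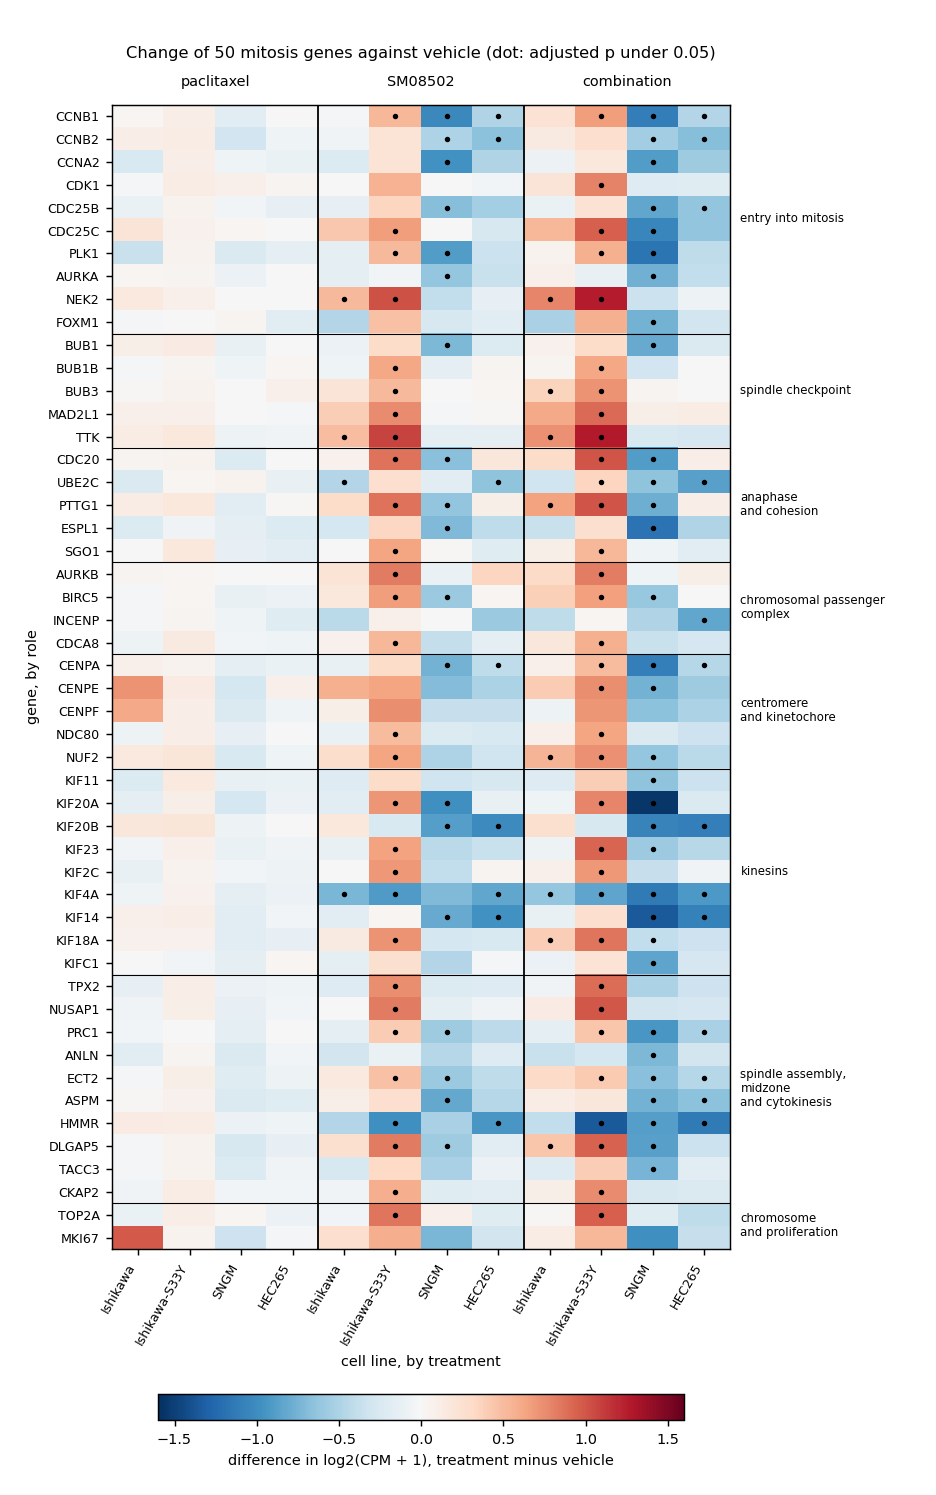
Difference in log2(CPM + 1), treatment minus vehicle, for the 50 genes (rows, by role) in each line and treatment (columns); red is higher, blue is lower, and a dot marks an adjusted p under 0.05. The SM08502 and combination columns are mostly red in Ishikawa-S33Y and mostly blue in SNGM and HEC265, with KIF4A and HMMR blue in Ishikawa-S33Y as well, and the paclitaxel columns carry no dot.

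Among the 10 genes of entry into mitosis, SM08502 raised 4 in Ishikawa-S33Y and lowered 6 in SNGM. CCNB1, cyclin B1, read 262 and 266 CPM on vehicle and 381 and 382 CPM with SM08502 in Ishikawa-S33Y, a rise of 0.53 ± 0.15 (SE, n = 2 libraries a group) on the log2(CPM + 1) scale (adjusted p = 0.0101). In SNGM it read 295 and 233 CPM on vehicle and 109.7 and 148 CPM with SM08502, and fell by 1.03 ± 0.15 (adjusted p = 0.000123). In neither line did the SM08502 libraries overlap the vehicle libraries. CCNB1 was the only gene of the list that rose in Ishikawa-S33Y and also fell in HEC265, from 222 and 227 to 158 and 163 CPM (a fall of 0.48, adjusted p = 0.0305, 0.16 at most over the alternatives). In Ishikawa its SM08502 libraries, at 392 and 478 CPM, lay on both sides of the vehicle libraries at 443 and 436 CPM. PLK1, the polo-like kinase that acts from mitotic entry to cytokinesis, went from 106 and 98 to 148 and 147 CPM in Ishikawa-S33Y (adjusted p = 0.0121). In SNGM PLK1 went the other way, from 136 and 112 to 56.7 and 76.8 CPM, a fall of 0.89 ± 0.15 (adjusted p = 0.000617). The rises of CCNB1 and PLK1 in Ishikawa-S33Y did not survive every left-out library (highest adjusted p 0.0598 and 0.0967).

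Other entry genes moved in 1 direction. CCNB2 fell in SNGM, from 34.4 and 30.6 to 23.2 and 22.2 CPM (adjusted p = 0.0304), and in HEC265, from 105 and 110.2 to 66.2 and 70.0 CPM (adjusted p = 0.00294). In Ishikawa-S33Y its change of 0.22 did not pass the test (adjusted p = 0.257). AURKA, the Aurora kinase of centrosomes and spindle poles, fell in SNGM from 93.2 and 78.2 to 47.3 and 64.3 CPM (adjusted p = 0.0118). In Ishikawa-S33Y it read 90.7 and 91.5 CPM on vehicle and 87.9 and 88.3 CPM with SM08502. For AURKA, as for CCNB1 and PLK1, SM08502 replicate 1 was the lower of the SNGM pair. CCNA2, cyclin A2, fell in SNGM from 162 and 131 to 61 and 90.3 CPM, by 0.96 ± 0.24 (adjusted p = 0.0163). NEK2, a kinase that separates centrosomes, rose in both Ishikawa lines: from 55 and 57.3 to 77.4 and 84.2 CPM in Ishikawa (adjusted p = 0.0453) and from 27 and 27 to 54.4 and 56.9 CPM in Ishikawa-S33Y (a rise of 1.02 ± 0.17, adjusted p = 0.000159). The Ishikawa rise of NEK2 is close to the threshold, with an adjusted p of 0.0111 to 0.241 over the alternatives. CDK1, the kinase partner of cyclin B, and FOXM1, a transcription factor of G2/M genes, were called in no line with SM08502. CDK1 read 99.2 and 96 CPM on vehicle and 144 and 143 CPM with SM08502 in Ishikawa-S33Y (adjusted p = 0.052). In SNGM its SM08502 libraries, at 77.4 and 109 CPM, lay on both sides of vehicle at 99.7 and 83.2 CPM. FOXM1 read 73.3 and 99.2 CPM on vehicle and 71.1 and 72 CPM with SM08502 in SNGM (adjusted p = 0.683). RefSeq places ERN2 over part of PLK1, EXOSC9 over CCNA2, FAM53C over CDC25C, and ITFG2 and RHNO1 over FOXM1. It lists 4 pseudogenes of NEK2, 2 of AURKA and 1 of CCNB2. These levels are uncertain where reads could be shared. The same holds for other genes of the list with an overlapping gene or a pseudogene, not all of which are named here. CDC25C, a phosphatase that activates CDK1, rose in Ishikawa-S33Y from 7.98 and 8.22 to 13.6 and 13.2 CPM (adjusted p = 0.037).

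Of the 5 genes of the spindle checkpoint itself, 4 rose in Ishikawa-S33Y, and in SNGM and HEC265 these 4 were not called. TTK, the checkpoint kinase also known as MPS1, had the highest rise of the list in Ishikawa-S33Y: 59 and 62 CPM on vehicle and 126 and 133 CPM with SM08502, a rise of 1.08 ± 0.16 (adjusted p = 3.81e-05). TTK was called in Ishikawa too, from 109 and 123 to 158 and 168 CPM (adjusted p = 0.0408, 0.0106 to 0.217 over the alternatives). In SNGM its libraries overlapped, at 90.8 and 78.4 CPM on vehicle and 66.7 and 86.3 CPM with SM08502. BUB3, which brings the BUB kinases to kinetochores, rose in Ishikawa-S33Y from 131 and 131 to 191 and 184 CPM, by 0.51 ± 0.10. Its change was 0.01 ± 0.10 in SNGM and 0.03 ± 0.10 in HEC265, neither past the test. MAD2L1, the MAD2 protein of the inhibitory checkpoint complex, went from 75.1 and 73.1 to 123 and 128 CPM in Ishikawa-S33Y (adjusted p = 0.0142) and changed by -0.03 in SNGM, within the spread of its duplicates there. BUB1B, the checkpoint protein BUBR1, rose in Ishikawa-S33Y from 69.9 and 71.9 to 112 and 107 CPM, by 0.62 (adjusted p = 0.00278). BUB1, the kinase that marks centromeres for shugoshin, was the checkpoint gene that fell in SNGM, from 185 and 162 to 91.7 and 119 CPM (adjusted p = 0.00113). RefSeq places the protein-coding gene BUB1B-PAK6 over BUB1B and lists 1 pseudogene each of BUB1, BUB3 and MAD2L1. The levels of these 4 genes are uncertain where reads could be shared. The SM08502 change of TTK, BUB1 and BUB1B differed among the lines (adjusted p = 0.00187, 0.0061 and 0.0411); that of BUB3 and MAD2L1 did not pass (0.0677 and 0.217).

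The lowest p for a difference among lines in the SM08502 change belonged to CDC20 and PTTG1, which act at anaphase. CDC20, the activator of the anaphase-promoting complex, rose in Ishikawa-S33Y from 104 and 107 to 191 and 194 CPM, by 0.86 ± 0.11 (adjusted p = 8.70e-06). In SNGM CDC20 fell from 139 and 114 to 69.8 and 88.8 CPM, by 0.67 ± 0.11 (adjusted p = 0.000485). Its HEC265 libraries, unlike most of the list there, stood above vehicle, at 161 and 167 against 144 and 146 CPM, without passing the test (adjusted p = 0.343). PTTG1, securin, the inhibitor of separase, rose in Ishikawa-S33Y from 80.2 and 81.9 to 146 and 151 CPM (adjusted p = 8.39e-06) and fell in SNGM from 163 and 141 to 90.0 and 106 CPM (adjusted p = 0.000808). For both genes the Ishikawa-S33Y duplicates lay close together, and in SNGM the higher SM08502 library still stood below the lower vehicle library. ESPL1, separase, fell in SNGM from 47.5 and 51.3 to 27.3 and 33 CPM, by 0.70 ± 0.20 (adjusted p = 0.0352) and was not called elsewhere. UBE2C, the ubiquitin-conjugating enzyme of the same complex, fell in Ishikawa from 238 and 217 to 175 and 154 CPM (adjusted p = 0.0129) and in HEC265 from 145 and 146 to 89.5 and 95.9 CPM (adjusted p = 0.000935). SGO1, shugoshin, the protector of centromeric cohesion, rose in Ishikawa-S33Y from 41.6 and 44.4 to 66.6 and 67.8 CPM (adjusted p = 0.00187). None of these called pairs of groups overlapped. RefSeq lists 5 pseudogenes of UBE2C, 2 of PTTG1 and 1 of CDC20, and an antisense gene over SGO1; how reads were shared between such copies, and on which strand they were counted, is not given in the sources used here, so these levels are uncertain to that extent.

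**Figure D4:**
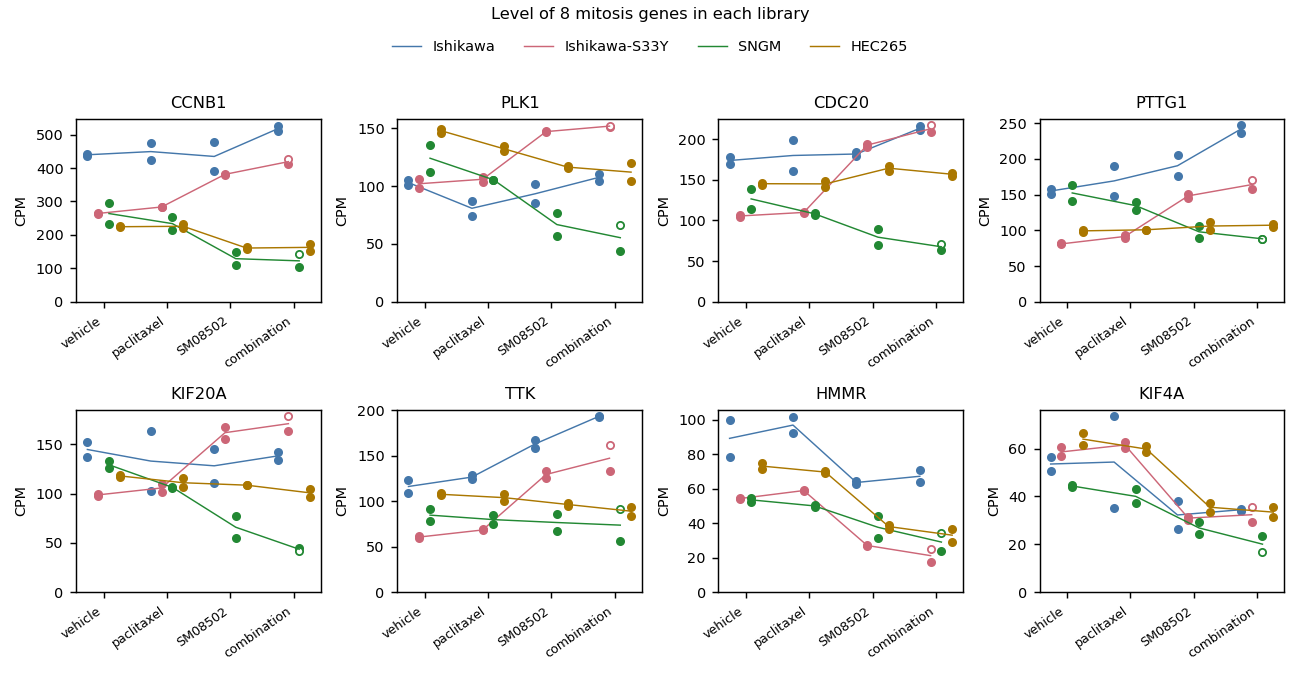
CPM (y axis, from 0) of 8 genes in each library by treatment (x axis) and line (colour); points are libraries, lines join group means, and open points are the 2 shallow libraries. CCNB1, PLK1, CDC20, PTTG1 and KIF20A rise in Ishikawa-S33Y and fall in SNGM with SM08502, TTK rises in both Ishikawa lines, and HMMR and KIF4A are lower with SM08502 than on vehicle in all 4 lines, not all of these differences passing the test.

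Of the 4 genes of the chromosomal passenger complex, which corrects faulty attachments at centromeres, AURKB, BIRC5 and CDCA8 rose in Ishikawa-S33Y. AURKB, the Aurora kinase of the complex, read 23.2 and 22.8 CPM on vehicle and 41.2 and 42.1 CPM with SM08502 there (adjusted p = 0.00202). BIRC5, survivin, rose in Ishikawa-S33Y from 114 and 106 to 172 and 179 CPM and fell in SNGM from 95.8 and 79 to 48.8 and 66.7 CPM (adjusted p = 0.00494 and 0.0306). INCENP, the scaffold of the complex, was not called in any line with SM08502. Among the 5 centromere and kinetochore genes, NDC80 and NUF2, subunits of the microtubule-binding NDC80 complex, rose in Ishikawa-S33Y, NUF2 from 29.9 and 30.9 to 45 and 50.0 CPM (adjusted p = 0.00517). CENPA, the histone variant of centromeres, fell in SNGM and HEC265. CENPE, a kinetochore motor, changed by 0.63 ± 0.24 in Ishikawa-S33Y and -0.69 ± 0.24 in SNGM, neither past the test (adjusted p = 0.0561 and 0.0891).

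The 9 kinesins held both patterns. KIF20A, a midzone motor needed for cytokinesis, rose in Ishikawa-S33Y from 97.7 and 99.6 to 156 and 168 CPM (adjusted p = 0.00257) and fell in SNGM from 133 and 126 to 54.8 and 76.7 CPM, by 0.98 ± 0.16 (adjusted p = 0.00055). In both lines the groups were apart. RefSeq places CDC23 over part of KIF20A. KIF20B and KIF14, which also act in cytokinesis, fell in both SNGM and HEC265. KIF20B went from 74.1 and 77.7 to 35.2 and 47.5 CPM in SNGM (adjusted p = 0.00128). In HEC265 it went from 72.5 and 75.5 to 35.3 and 36.8 CPM, where its fall of 1.02 ± 0.16 was the largest of the list (adjusted p = 0.000177). KIF14 went from 98.3 and 99.2 to 47.7 and 66.1 CPM in SNGM and from 69.2 and 73 to 35.8 and 36 CPM in HEC265, falls of 0.80 ± 0.20 and 0.97 ± 0.20. KIF4A, a chromosome-bound motor that shapes the midzone, fell in 3 lines. It went from 50.7 and 56.4 to 38 and 26.5 CPM in Ishikawa (adjusted p = 0.0271), from 56.8 and 60.5 to 31.6 and 30.3 CPM in Ishikawa-S33Y (adjusted p = 0.0039) and from 61.4 and 66.6 to 33.6 and 37.4 CPM in HEC265 (adjusted p = 0.0127). In SNGM both SM08502 libraries, at 24.4 and 29.2 CPM, also stood below vehicle at 43.8 and 44.9 CPM, just outside the threshold (adjusted p = 0.0501). The KIF4A change did not pass the test of a difference among lines (adjusted p = 0.957). The Ishikawa fall of KIF4A had an adjusted p of up to 0.314 over the alternatives and that in HEC265 up to 0.108. KIF11, the motor that pushes spindle poles apart, was called in no line with SM08502.

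Of the 10 genes of spindle assembly, midzone and cytokinesis, 6 rose and 1 fell in Ishikawa-S33Y and 4 fell in SNGM. The exception in Ishikawa-S33Y was HMMR, a spindle protein that also binds hyaluronan. It went from 54.8 and 53.8 to 27.5 and 26.6 CPM, a fall of 0.98 ± 0.17 (adjusted p = 0.000232), and in HEC265 from 71.6 and 74.6 to 39.2 and 36.8 CPM, a fall of 0.93 (adjusted p = 0.000842). HMMR and KIF4A were the only genes of the list that fell in Ishikawa-S33Y. The windows printed above hold TTTGAA in both, and also in CDC20 and PLK1, which rose there. TTTGAA was found in 29 of the 43 promoters of the list at hand. The SM08502 change of HMMR did not pass the test among lines (adjusted p = 0.262). RefSeq places the antisense gene HMMR-AS1 over HMMR. DLGAP5, a spindle protein of kinetochore fibres, rose in Ishikawa-S33Y from 87.5 and 92.9 to 157 and 165 CPM (adjusted p = 9.72e-05) and fell in SNGM from 61.9 and 58.7 to 33.9 and 47.9 CPM (adjusted p = 0.00939). TPX2, which activates AURKA on the spindle, rose in Ishikawa-S33Y from 232 and 244 to 399 and 399 CPM (adjusted p = 0.00659) and changed by -0.22 in SNGM and -0.21 in HEC265, neither called. TOP2A, the topoisomerase that untangles chromosomes, rose in Ishikawa-S33Y from 490.3 and 495 to 906 and 875 CPM (adjusted p = 0.00297), and in SNGM its SM08502 libraries, at 435 and 564 CPM, lay on both sides of vehicle at 480.4 and 453 CPM. MKI67 was called nowhere with SM08502. In Ishikawa-S33Y it read 578 and 571 CPM on vehicle and 880.0 and 843 CPM with SM08502, without overlap, with a standard error of 0.40 in the shared fit.

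**Figure D5:**
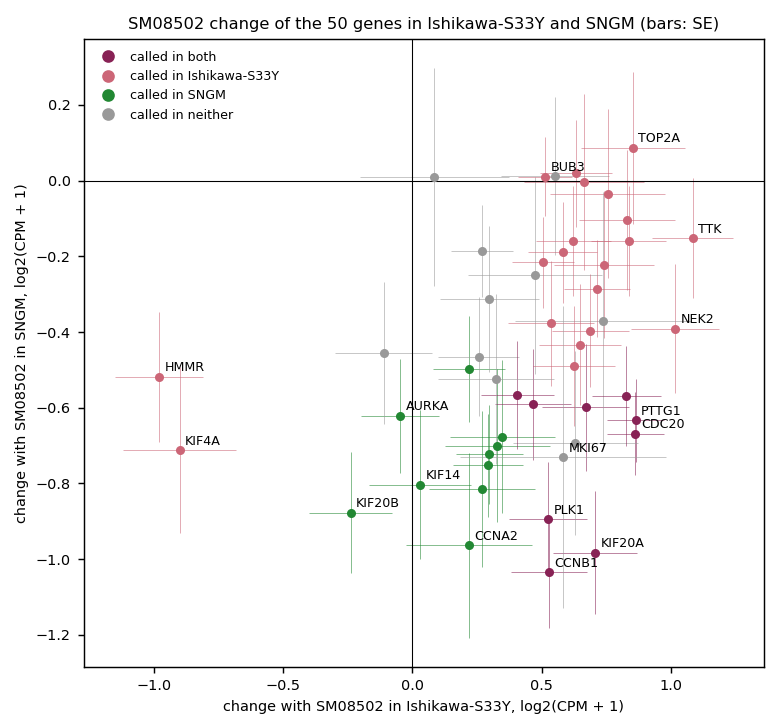
SM08502 minus vehicle as a difference in log2(CPM + 1) in Ishikawa-S33Y (x axis) and SNGM (y axis) for each of the 50 genes; bars are standard errors and colour gives the line or lines in which the gene was called. Most genes lie to the right of 0 and below 0, CCNB1 (0.53 and -1.03) and KIF20A (0.71 and -0.98) lie lowest among them, and HMMR and KIF4A lie farthest to the left.

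The difference between lines was itself tested. The SM08502 change differed among the 4 lines for 30 of the 50 genes, where 12.4% of all tested genes did. Lowest in p were CDC20, PTTG1, CCNB1, DLGAP5 and KIF20A. Between pairs of lines, counts added after the values were seen, SNGM minus Ishikawa-S33Y had 32 genes lower (background 9.83%; 18 to 35 when single libraries were left out). HEC265 minus Ishikawa-S33Y had 24 lower (5.66%), 7 to 15 when any 1 of the 8 libraries involved was left out (7 without Ishikawa-S33Y SM08502 replicate 2) and 37 with the length score. For CDC20 the SNGM change was lower than the Ishikawa-S33Y change by 1.53 ± 0.16 on the log2 scale (adjusted p = 1.09e-05), and for CCNB1 by 1.56 ± 0.21 (adjusted p = 0.000131). SNGM minus Ishikawa had 8 genes lower (3.66%), among them CCNB1, CDC20 and PTTG1; the count was 1 to 10 when single libraries were left out (1 without SNGM SM08502 replicate 1) and 19 with the length score. HEC265 minus Ishikawa had 1 lower, KIF20B (2.56%), and 7 with the length score. HEC265 minus SNGM had 2 higher, CDC20 and PTTG1 (2.03%), with differences of 0.85 and 0.73, and 1 to 3 were called when single libraries were left out. Ishikawa-S33Y minus Ishikawa had 4 higher, CDC20, UBE2C, KIF20A and NUSAP1 (2.43%); this count was 0 to 17 when single libraries were left out (17 without Ishikawa SM08502 replicate 1), 23 with the length score as covariate and 2 after re-centring on the median. Among the 3 lines labelled CTNNB1-mutated, 27 of 29 called genes rose in Ishikawa-S33Y, and all 19 in SNGM and all 8 in HEC265 fell.

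These counts rest on a spread shared by all 16 groups. A fit to the SNGM libraries alone called 0 of the 50 genes with SM08502, with 62 genes of the table called lower in all, and a fit to the HEC265 libraries alone called 31. In SNGM 8 genes were called lower without vehicle replicate 1 and 6 without SM08502 replicate 1, in place of 19. In HEC265 5 were called without any 1 of its 4 libraries in place of 8, with CCNB1 and KIF4A lost each time. In Ishikawa-S33Y 21 to 22 were called without a library, in place of 29, and among the genes named above CCNB1, PLK1, MAD2L1, CDC25C, NUF2, BIRC5 and TPX2 each lost the call in at least 1 such fit. The falls of CCNB1, CDC20, KIF20A, PLK1 and PTTG1 in SNGM were called in every alternative but the fit to that line alone (adjusted p = 0.115, 0.115, 0.0657, 0.159 and 0.0753 there). Those of CCNB2 and ESPL1 were lost without any 1 of the 4 SNGM libraries (adjusted p of up to 0.258 and 0.292 over the alternatives). Without SNGM SM08502 replicate 1 the calls of AURKA, BIRC5, BUB1, CCNA2, DLGAP5, KIF14 and KIF20B were lost as well, and without vehicle replicate 1 those of AURKA, BIRC5, CCNA2, DLGAP5 and KIF14. Each of the 4 Ishikawa calls was lost in 3 or more alternatives.

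Genes outside the list were counted for comparison. Of 71 other mitotic genes tested (kinetochore, condensin, augmin and checkpoint partners), 29 rose and 6 fell in Ishikawa-S33Y with SM08502, 0 rose and 13 fell in SNGM, 6 rose and 8 fell in HEC265, and 3 rose and 5 fell in Ishikawa. Their medians were 0.32, -0.19, -0.08 and -0.01. Of 20 DNA replication genes, which are transcribed earlier in the cycle, 1 rose and 3 fell in Ishikawa-S33Y, 0 rose and 2 fell in SNGM, 1 rose and 1 fell in HEC265, and 0 rose and 2 fell in Ishikawa, with medians of 0.02, 0.01, 0.17 and -0.11.

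With the combination, rises prevailed in Ishikawa-S33Y and falls in SNGM and HEC265; these comparisons use the same vehicle libraries as those of SM08502. In all, 31 of the 50 genes rose and 2 fell in Ishikawa-S33Y (background 24% higher, 18% lower), and 32 fell and none rose in SNGM (7.54% lower, 10.8% higher). HEC265 had 13 falls and no rise (7.16% lower, 12.4% higher), and Ishikawa 7 rises and 1 fall (11.6% higher, 11.2% lower). Medians over the list were 0.59, -0.70, -0.34 and 0.09, where those of all tested genes were 0.06, 0.00, 0.09 and 0.03. The change differed among the lines for 41 of the 50 genes, where 27.1% of all tested genes did, and 16 genes rose in Ishikawa-S33Y and fell in SNGM. By role, the falls in SNGM took in 8 of 9 kinesins, 8 of 10 genes of entry, 4 of 5 of anaphase and 7 of 10 of spindle assembly and cytokinesis, and 1 of 5 of the checkpoint, BUB1. In Ishikawa-S33Y 4 of 5 checkpoint genes and 4 of 5 centromere and kinetochore genes rose. Of the 71 other mitotic genes, 37 rose and 7 fell in Ishikawa-S33Y, 3 rose and 24 fell in SNGM, and 5 rose and 15 fell in HEC265. Without SNGM vehicle replicate 1 the falls of the list in SNGM numbered 20, and in a fit to SNGM alone 12; the HEC265 count was 5 to 10 without single libraries and 40 in a fit to that line. Without both shallow libraries 28 genes rose and 3 fell in Ishikawa-S33Y, and 34 fell in SNGM. Among genes named with values, leaving out a library ended the combination calls of AURKB, CDK1, CENPE, SGO1 and UBE2C in Ishikawa-S33Y, of BIRC5, CCNA2, CCNB2, CDC25C, CENPE, FOXM1, KIF11 and NUF2 in SNGM, of CCNB1 and KIF4A in HEC265, and of BUB3, DLGAP5, KIF4A and NUF2 in Ishikawa.

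KIF20A in SNGM fell from 133 and 126 CPM on vehicle to 45.2 and 41.7 CPM, by 1.55 ± 0.16, the largest fall of the list (adjusted p = 2.74e-06). Both combination libraries, the shallow one included, stood far below both vehicle libraries. KIF14 and ESPL1 came next there, with falls of 1.34 ± 0.20 and 1.18 ± 0.20 (adjusted p = 0.000102 and 0.000385). In Ishikawa-S33Y TTK went from 59 and 62 to 133 and 162 CPM, a rise of 1.26 ± 0.16 (adjusted p = 2.58e-06), NEK2 rose by 1.25 and PTTG1 by 1.01. CDK1, not called with SM08502, rose with the combination in Ishikawa-S33Y, from 99.2 and 96 to 155 and 186 CPM (adjusted p = 0.00419, 0.0536 without the shallow library). The combination libraries of TTK and CDK1 lay above vehicle, the shallow one highest. HMMR fell there from 54.8 and 53.8 to 17.2 and 25.1 CPM, by 1.35 ± 0.17 (adjusted p = 3.19e-06). KIF4A fell in all 4 lines, by 0.92 in HEC265, 1.13 in SNGM, 0.84 in Ishikawa-S33Y and 0.62 in Ishikawa (adjusted p = 0.00483, 0.00123, 0.00393 and 0.0461); over the alternatives the Ishikawa value reached 0.307, and the HEC265 value 0.0655, with the call lost without HEC265 vehicle replicate 2 or combination replicate 2. In HEC265 HMMR, KIF20B and KIF14 had the largest falls, 1.13, 1.09 and 1.08.

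In Ishikawa the combination raised NEK2, TTK, PTTG1, NUF2, DLGAP5, KIF18A and BUB3. These 7 rises are close to the background, where 11.6% of all tested genes were called higher. Rises and falls together, 16% of the list was called there, against 22.8% of all tested genes. PTTG1 read 159 and 152 CPM on vehicle and 237 and 247 CPM with the combination, a rise of 0.64 ± 0.11 (adjusted p = 0.000346). TTK read 109 and 123 and then 194 and 193 CPM (adjusted p = 0.00243), and NEK2 55 and 57.3 and then 96.3 and 98.1 CPM (adjusted p = 0.0027). The groups were apart for these 3 genes. All 7 also rose in Ishikawa-S33Y. When single libraries were left out, 3 or 4 genes were called in place of 8. CDC25C in SNGM, called lower with the combination (adjusted p = 0.00359), rests on the shallow library, where 2 reads gave 1.24 CPM; the deeper one read 4.23 CPM against 6.32 and 5.86 CPM on vehicle, and without it the change was -0.44 (adjusted p = 0.101).

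The combination was also compared with SM08502 alone. No gene of the list was called in any line, where the background was 0% of all tested genes for Ishikawa, 0.129% for Ishikawa-S33Y, 0.253% for SNGM and 0.00588% for HEC265. At an unadjusted p under 0.05 there were 2, 1, 10 and 0 genes of the list. In SNGM the median was -0.15 and 42 of the 50 changes were negative, with CDC25C lowest in p (adjusted p = 0.0619, on the shallow library). Fitted with the length score as covariate, 5 genes were called lower there, and without SNGM combination replicate 1, which leaves only the shallow library, 4 were called higher and 3 lower. PTTG1 in Ishikawa stood at 176 and 205 CPM with SM08502 and 237 and 247 CPM with the combination (unadjusted p = 0.00462, adjusted p = 1). HMMR in Ishikawa-S33Y read 27.5 and 26.6 and then 17.2 and 25.1 CPM (adjusted p = 0.397), and UBE2C in HEC265 89.5 and 95.9 and then 91 and 69.7 CPM (adjusted p = 1).

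Paclitaxel alone changed no gene of the list past the test in any line. The background was 0.0118% of all tested genes for Ishikawa, 0% for Ishikawa-S33Y, 0.0176% for SNGM and 0.00588% for HEC265. At an unadjusted p under 0.05 the list had 3 genes for Ishikawa, 1 for SNGM and 0 for the other lines; limma voom on the recovered reads also called none, and the fit with the length score called 1 in Ishikawa. The test among lines called 0 of the 50 (0% of all tested genes; 0 of the list at an unadjusted p under 0.05). The medians were small and of different sign, 0.08 in Ishikawa-S33Y, -0.12 in SNGM, -0.06 in HEC265 and -0.02 in Ishikawa. In Ishikawa-S33Y both paclitaxel libraries were above both vehicle libraries for 33 of the 50 genes (24.3% of all tested genes), and in SNGM both were below for 27 (12.9%) and in HEC265 for 25 (14.4%).

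The lowest p for paclitaxel in each line belonged to CENPE, PTTG1, CCNB2 and SGO1. CCNB2 in SNGM read 34.4 and 30.6 CPM on vehicle and 29.2 and 23.1 CPM with paclitaxel (unadjusted p = 0.0374, adjusted p = 1). PTTG1 in Ishikawa-S33Y read 80.2 and 81.9 and then 89.2 and 93.7 CPM (unadjusted p = 0.13), and SGO1 in HEC265 49.1 and 51 and then 43.9 and 44.4 CPM (unadjusted p = 0.227). In each of these 3 both paclitaxel libraries lay outside the range of the vehicle libraries, without passing the test. CENPE in Ishikawa read 20.5 and 34.5 CPM on vehicle and 68.1 and 28.6 CPM with paclitaxel (unadjusted p = 0.00786, adjusted p = 0.456). The Ishikawa paclitaxel libraries stood far apart for several genes: MKI67 at 276 and 53.2 CPM, CENPF at 199 and 55.3 CPM and TOP2A at 661 and 367 CPM. The first of these libraries also had the higher length score of the pair. Without replicate 2 of this pair 3 genes of the list were called higher, and without replicate 1, 1 was called lower.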

How the data were processed

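RNA of 4 cell lines was sequenced in 16 groups of 2 libraries. Per the labels' protocols, RNA was extracted with RNeasy kits, depleted of ribosomal RNA with FastSelect and made into libraries with KAPA mRNA HyperPrep. The submitters' processing notes name GRCh38, bcl2fastq, STAR and kallisto; which made the counts, the annotation and the strand are not given in the sources used here. The authors deposited 1 table of log10 values, log10(CPM + 1). Taken back to CPM, each library sums to 1000000. The lowest CPM above 0 in a library was taken as 1 read. Over all genes and libraries, 100% of the values were whole multiples of it (tolerance 0.05). This gave the depths (1607038 to 34127623 reads).

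CPM were taken to log2(CPM + 1) with a pseudocount of 1. Genes with CPM above 1 in at least 2 libraries (17011 of 35238) were fitted with limma 3.58.1 in R 4.3.3: 1 mean per group, 16 residual degrees of freedom, empirical Bayes with a trend, two-sided tests, Benjamini-Hochberg adjustment over all genes tested in a contrast, calls at an adjusted p under 0.05. Differences among lines used the moderated F test. With 2 libraries a group an exact permutation test could not reach the threshold and was not used. The fit was tested on simulated data with known changes for SM08502 against vehicle in SNGM. It called 24 of 100 genes with a true log2 change of 0.5 and 94 of 100 with a change of 1. A gene that was not called may therefore still have changed. The simulated libraries varied independently with an assumed spread, so these shares hold for that setting only.

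The members and gene lists were chosen with earlier results of these data known. Genes named with values are 22 chosen by role; the 3 largest called rises and falls in each line for SM08502 and the combination; the lowest p for paclitaxel and for the combination against SM08502 in each line; and the 5 lowest p among lines. CENPF and the pairwise counts between lines were added after the values were seen. Alternatives were no filter on low values, a pseudocount of 0.1, re-centring on the median, quantile normalization, a fit to the line alone, a replicate block, limma voom on the recovered reads, the length score as covariate and leaving out each library; chosen after seeing the data were leaving out both shallow libraries and the Ishikawa line. No 2 libraries of a group agreed within counting noise (chi-square per degree of freedom 2.39 to 97.7). Promoters of AURKA, FOXM1, BUB3, TTK, UBE2C, BIRC5 and TPX2 were not used here.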

Additional observations from a re-analysis of the deposited data

Results flagged for a closer look

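The response to SM08502 differed among the 4 lines for 30 of the 50 genes, by limma's moderated F test of the difference itself. The lowest adjusted p-values were 3.95e-05 for CDC20, 4.15e-05 for PTTG1, 0.000365 for CCNB1, 0.000365 for DLGAP5 and 0.000704 for KIF20A. The response to the combination differed for 41 of the 50, with adjusted p = 8.81e-07 for CDC20, 8.81e-07 for PTTG1, 4.95e-06 for DLGAP5, 6.76e-06 for KIF20A and 2.17e-05 for CCNB1. Each of the 5 rose in Ishikawa-S33Y and fell in SNGM with SM08502. Both comparisons rest on the same vehicle libraries, and the SM08502 dose differed between lines (80, 85, 350.7 and 149 nM in Ishikawa, Ishikawa-S33Y, SNGM and HEC265), so dose and line cannot be told apart. Groups of 2 libraries are too small for a search for outlying samples.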

How the results depend on the processing

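Counts are genes of the 50 called, by limma. With SM08502, Ishikawa (4) gave 1 with no filter, 2 with a pseudocount of 0.1, 7 after quantile normalization, 8 with the length score and 0 in a fit to the line alone; that fit gave 0 in SNGM (19) and 31 in HEC265 (8), where 16 were called without the Ishikawa line. With the combination, the fit to the line alone gave 2 in Ishikawa (8), 12 in SNGM (32) and 40 in HEC265 (13); HEC265 also gave 8 with no filter, 22 after re-centring, 22 with voom and 21 without the Ishikawa line. The length score as covariate gave 1 for paclitaxel in Ishikawa (0) and 5 for the combination against SM08502 in SNGM (0), where the fit without the Ishikawa line gave 1. For pairs of lines, Ishikawa-S33Y minus Ishikawa (4) gave 2 after re-centring, 23 with the length score and 10 with voom; SNGM minus Ishikawa (8) gave 5 with no filter, 5 with a pseudocount of 0.1, 13 after quantile normalization, 19 with the length score and 15 with voom; HEC265 minus Ishikawa (1) gave 3 after re-centring, 2 after quantile normalization and 7 with the length score; HEC265 minus Ishikawa-S33Y (24) gave 37 with the length score. The cause of these moves was not tested.

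Leaving out single libraries gave, for SM08502, 0 to 6 in Ishikawa, 6 to 17 in SNGM and 5 in HEC265; for paclitaxel in Ishikawa 0 to 3; for the combination 3 to 4 in Ishikawa, 20 to 33 in SNGM and 5 to 10 in HEC265; for the combination against SM08502 in SNGM 0 to 7. For pairs of lines it gave 0 to 17 (Ishikawa-S33Y minus Ishikawa), 1 to 10 (SNGM minus Ishikawa), 18 to 35 (SNGM minus Ishikawa-S33Y), 1 to 2 (HEC265 minus Ishikawa), 7 to 15 (HEC265 minus Ishikawa-S33Y) and 1 to 3 (HEC265 minus SNGM). Among lines it gave 20 to 36 for SM08502, 0 to 1 for paclitaxel and 33 to 43 for the combination. Such a fit leaves 1 group with a single library, assumed to vary like the others.

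The replicate numbers do not pair the samples in a consistent way: correlations of same-numbered deviations ran from -0.65 to 0.86 over 6083 genes. In SNGM they were 0.84 (vehicle with paclitaxel) and 0.60 (SM08502 with combination), and -0.56 to -0.65 across these pairs. In Ishikawa they were 0.86 for paclitaxel with SM08502, and -0.52 and -0.57 for these with vehicle. Duplicates there thus share differences across treatments, which a block by replicate number cannot take up where the sign is opposite. Their source was not tested. With the replicate block the counts were 3, 29, 21 and 9 for SM08502 (Ishikawa, Ishikawa-S33Y, SNGM, HEC265), 8, 33, 32 and 14 for the combination, and 0 for paclitaxel and for the combination against SM08502. Of 104 called values of named genes, 50 were called in all of their alternatives; over 1386 alternative values 1210 were and 0 reversed. Depth limits the 2 shallow libraries, whose lowest gene had 52 and 2 reads.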
